A study of Mus musculus with 6 samples.

Results

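The genes described here are the interferon-stimulated genes of the infarcted mouse left ventricle other than the guanylate-binding proteins. They were chosen by gene symbol, as given in a list made with earlier results of these data known: signal transducers such as Stat2, the single-digit interferon regulatory factors (Irf), the symbols beginning with Ifi, Oas, Slfn, Irgm, Tgtp and Trim30, and single genes such as Isg15, Rsad2, Bst2 and Zbp1. The pattern matched 85 of the 17556 genes in the expression table, and 78 of these had enough counts to enter a test of 13817 genes. Mx1, Mx2 and Ifi44l were not analysed here.

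Bulk RNAseq was carried out on 6 samples of mouse left ventricle at 4 days post injury (dpi), 3 per genotype, each called a ventricle. The labels do not say whether each was 1 animal, so the p-values and the spread are those between 3 libraries per genotype. The mice were siblings, 6 to 10 weeks old, with floxed Yap and Wwtr1 alleles, all underwent ligation of the left anterior descending coronary artery, and all were fed tamoxifen citrate chow after surgery. The Cre positive mice carried MerCreMer, a Cre recombinase that tamoxifen switches on, at the endogenous Periostin locus, and the Cre negative siblings carried wildtype Periostin. Periostin marks myofibroblasts, the matrix-producing fibroblasts of a healing infarct, so that Cre was placed to remove both alleles of Yap and 1 allele of Wwtr1 from these cells and not from the rest of the ventricle. The comparison therefore asks how the interferon-stimulated genes of the whole injured ventricle stood with and without that deletion. In whole tissue, fewer cells of a type and less RNA per cell cannot be told apart.

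Interferons are secreted proteins that warn cells of infection or of misplaced nucleic acid. Type I interferons and interferon gamma bind separate receptors, whose Jak kinases phosphorylate transcription factors of the STAT family. A complex that holds Stat2 and Irf9 binds the interferon-stimulated response element in the promoters of target genes, whereas STAT pairs bind the gamma-activated site. The targets encode sensors of foreign RNA and DNA, proteins that block viral entry, translation or budding, and the regulators of the response itself. After myocardial infarction, DNA released by dying cells and taken up by macrophages is a known trigger of this response in the heart.

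The promoters of the members were read first. The response element itself was not used to choose these genes. They were chosen as interferon-stimulated genes, however, so a high share with the element was foreseen, and the shares below are a description. RefSeq windows running from 250 bases before to 50 bases after the transcription start (build GRCm38.p6) were given for 70 of the 85 members. A short form of the interferon-stimulated response element, GAAA followed by any 2 bases and GAAA again, was searched on both strands. It occurred in the windows of 36 of these 70 members (51.4%). It occurred in 524 of the 13729 genes of the expression table with a window (3.82%), and in 3.57% of those that are not members. The letters TTCNNNGAA, a form of the gamma-activated site that reads the same on both strands, occurred in 15 of the 70 members (21.4%) and in 8.53% of genes with a window. Letters of this kind are a description of the sequence and were not tested for binding of any factor. In 33 members the response element lay wholly before the start, its first base nearest the start being 12 to 241 bases upstream with a median of 64.

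The 8 members below are those of highest mean level whose element lay before the start and whose printed 60 bases lay outside every annotated gene. Each line gives 60 bases, 5′ to 3′ in the direction of the gene, with the matches to the element or its reverse complement in capitals. They come from chr8:71537562-71537621 (minus strand) for Bst2, chr4:156200850-156200909 (minus strand) for Isg15, chr11:48871421-48871480 (minus strand) for Irgm1, chr11:58199496-58199555 (plus strand) for Igtp, chr11:58214888-58214947 (plus strand) for Irgm2, chr7:104465195-104465254 (minus strand) for Trim30a, chr1:174031855-174031914 (minus strand) for Ifi205 and chr12:26456538-26456597 (minus strand) for Rsad2.
Bst2: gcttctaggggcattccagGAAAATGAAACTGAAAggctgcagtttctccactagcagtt
Isg15: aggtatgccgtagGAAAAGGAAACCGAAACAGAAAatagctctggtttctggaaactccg
Irgm1: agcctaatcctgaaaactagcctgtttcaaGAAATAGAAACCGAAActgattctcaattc
Igtp: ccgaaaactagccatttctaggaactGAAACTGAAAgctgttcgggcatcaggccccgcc
Irgm2: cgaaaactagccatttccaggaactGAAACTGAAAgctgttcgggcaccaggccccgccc
Trim30a: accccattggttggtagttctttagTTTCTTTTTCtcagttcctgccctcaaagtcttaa
Ifi205: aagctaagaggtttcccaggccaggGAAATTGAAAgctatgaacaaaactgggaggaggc
Rsad2: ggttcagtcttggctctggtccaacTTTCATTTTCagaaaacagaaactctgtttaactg
In Bst2, Isg15 and Irgm1 the matches overlap into a longer run, and Igtp and Irgm2, neighbouring genes of 1 family, hold the same 10 letters.

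The estimated counts summed to between 13177888 and 14827579 per ventricle, so that a gene at 3 counts, taken as the floor, stood at 0.202 to 0.228 CPM, counts scaled to library size. Ventricles of the same genotype differed beyond sampling noise, with a chi-square per gene of at least 8.13 between any 2 of the 6, and none was a copy of another. Cre negative replicate 1 stood apart from the other 5, with a chi-square per gene of 44.5 to 68.8 against each of them, and 8 cardiomyocyte markers lay at a median of 0.55 above their mean on the log2 scale in it. The floxed genes were not lower in Cre positive ventricles: Yap1 was at 44.2 to 46.3 TPM in Cre negative and 48.9 to 50.7 TPM in Cre positive ventricles, and Wwtr1 at 39.3 to 43.6 and 43.9 to 47.4 TPM. Postn, the locus that carries MerCreMer, was at 452, 1015 and 1112 TPM in Cre negative and 526, 636 and 586 TPM in Cre positive replicates 1, 2 and 3, so that Cre negative replicate 1 lay below and the other 2 above all Cre positive ventricles. TPM is a transcript level scaled to gene length and to the depth of the library. Whole-ventricle RNA holds Yap1 and Wwtr1 from all cells, so these values do not check the excision in myofibroblasts. The labels do not give sex, but the counts of 4 Y-linked genes, a list added after the data were seen, summed to 16 and 12 in replicate 2 of the Cre negative and Cre positive groups and to between 1592 and 2034 in the other 4 ventricles.

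Together the members held 3722, 5615 and 3664 TPM in Cre negative replicates 1, 2 and 3, and 4898, 5002 and 4708 TPM in Cre positive replicates 1, 2 and 3. The Cre positive ventricles thus all lay between the lowest and the highest Cre negative ventricle. The IFITM genes alone held 1610 to 2074 TPM of this sum in the Cre negative ventricles, and 55 of the 78 tested members had a mean of at least 10 TPM.

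**Figure D1:**
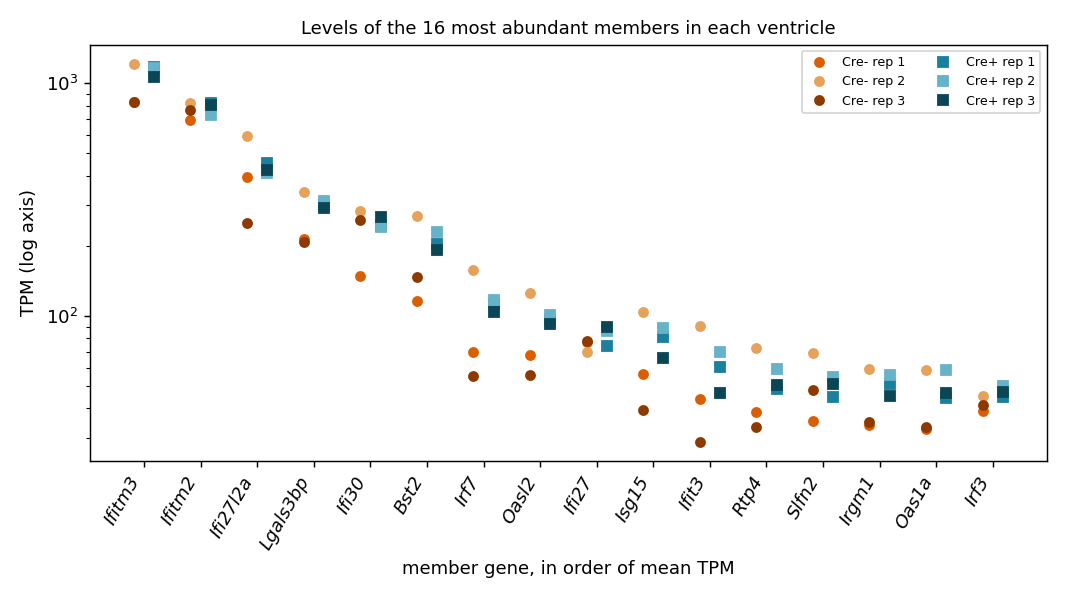
Level of the 16 most abundant members in each ventricle, in TPM on a log axis, with circles for the 3 Cre negative ventricles and squares for the 3 Cre positive ventricles. Cre negative replicate 2 is the highest circle for most genes, and for Irf7, Oasl2, Isg15 and Ifit3 the squares fall between it and the 2 lower circles.

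No member passed the test between the genotypes. With edgeR's quasi-likelihood test and Benjamini-Hochberg adjustment over all 13817 genes, 0 of the 78 members had an adjusted p under 0.05, the lowest adjusted p of a member being 0.714, and 1 gene of all those tested passed (0.00724%). That gene was Gbp2b, a guanylate-binding protein and so no member, at a mean of 1.305 normalized counts in Cre negative and 151 in Cre positive ventricles (adjusted p = 0.0099 in edgeR's test). With the replicate number as a block, or without Cre negative replicate 3, Cre positive replicate 1 or Cre positive replicate 3, 0 genes were called. At an unadjusted p under 0.05 there was 1 member, higher in Cre positive ventricles, against a background of 2.85% of genes higher and 2.98% lower. DESeq2's Wald test on the same counts likewise called 0 members. The log2 fold change, Cre positive minus Cre negative, was above 0 for 56 of the 78 members and below 0 for 22, against 51.2% of all genes above 0. Its median was 0.09 over the members and 0.01 over all genes, and it ran from -0.77 for Ifitm6 to 0.77 for Slfn3. Among cell type markers, all 8 cardiomyocyte markers had a log2 fold change below 0 (median -0.31), at a sum of 50776 to 61839 TPM in Cre negative and 45787 to 49759 TPM in Cre positive ventricles. Above 0 were 4 of 4 smooth muscle markers (median 0.37, at a sum of 377 to 875 and 855 to 985 TPM), 5 of 5 endothelial markers (median 0.06, at 407 to 511 and 508 to 578 TPM) and 6 of 7 fibroblast markers (median 0.12, at 4501 to 7248 and 7245 to 8323 TPM). Also above 0 were 3 of the 4 tested T and NK cell markers (median 0.58, at 4.08 to 9.47 and 6.89 to 17.2 TPM over all 8 listed) and 5 of 6 dendritic cell markers (median 0.31, at 10.1 to 13.03 and 12.95 to 15.8 TPM). So were 4 of 4 B cell markers (median 0.40, at 10.4 to 41.6 and 7.22 to 60.7 TPM) and 6 of 8 monocyte and macrophage markers (median 0.12). Of the 6 tested neutrophil markers 1 was above 0 (median -0.63). None of these markers was at 0 in all ventricles or passed the test, and their part in the members' log2 fold changes was not tested. Where TPM values were tested in place of counts, on the log2(TPM + 1) scale, the median of all genes itself shifted to 0.11 and that of the members to 0.25, which is 0.14 above it. TPM values and log2 fold changes of counts set side by side here therefore differ by about that shift. The 95% interval lay within a 2-fold change in either direction for 61 of the 78 members, against 85.1% of all genes.

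The median log2 fold change of the members rested on single ventricles. It was 0.39 without Cre negative replicate 2, 0.02 without Cre negative replicate 1 and -0.07 without Cre negative replicate 3, whereas it was 0.04 without Cre positive replicate 2. Without Cre negative replicate 2, 33 of the 78 members had an unadjusted p under 0.05, all higher in Cre positive ventricles (2.79% of genes did so in that fit), but 0 had an adjusted p under 0.05 and the lowest was 0.65. Irf7, Isg15, Bst2 and Oasl2 were among those 33 members. The replicate left out in that fit was the highest Cre negative ventricle for 66 of the 78 members. At the same threshold there was 1 member without Cre negative replicate 1 and 1 without replicate 3, each lower in Cre positive ventricles. Without Cre positive replicates 1, 2 and 3 there were 0, 1 and 0. The count of members with a log2 fold change above 0 likewise moved, to 44, 67 and 24 of the 78 without Cre negative replicate 1, 2 and 3, to 63 with the replicate number as a block and to 70 of the 76 members kept by the test of log2(TPM + 1).

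**Figure D2:**
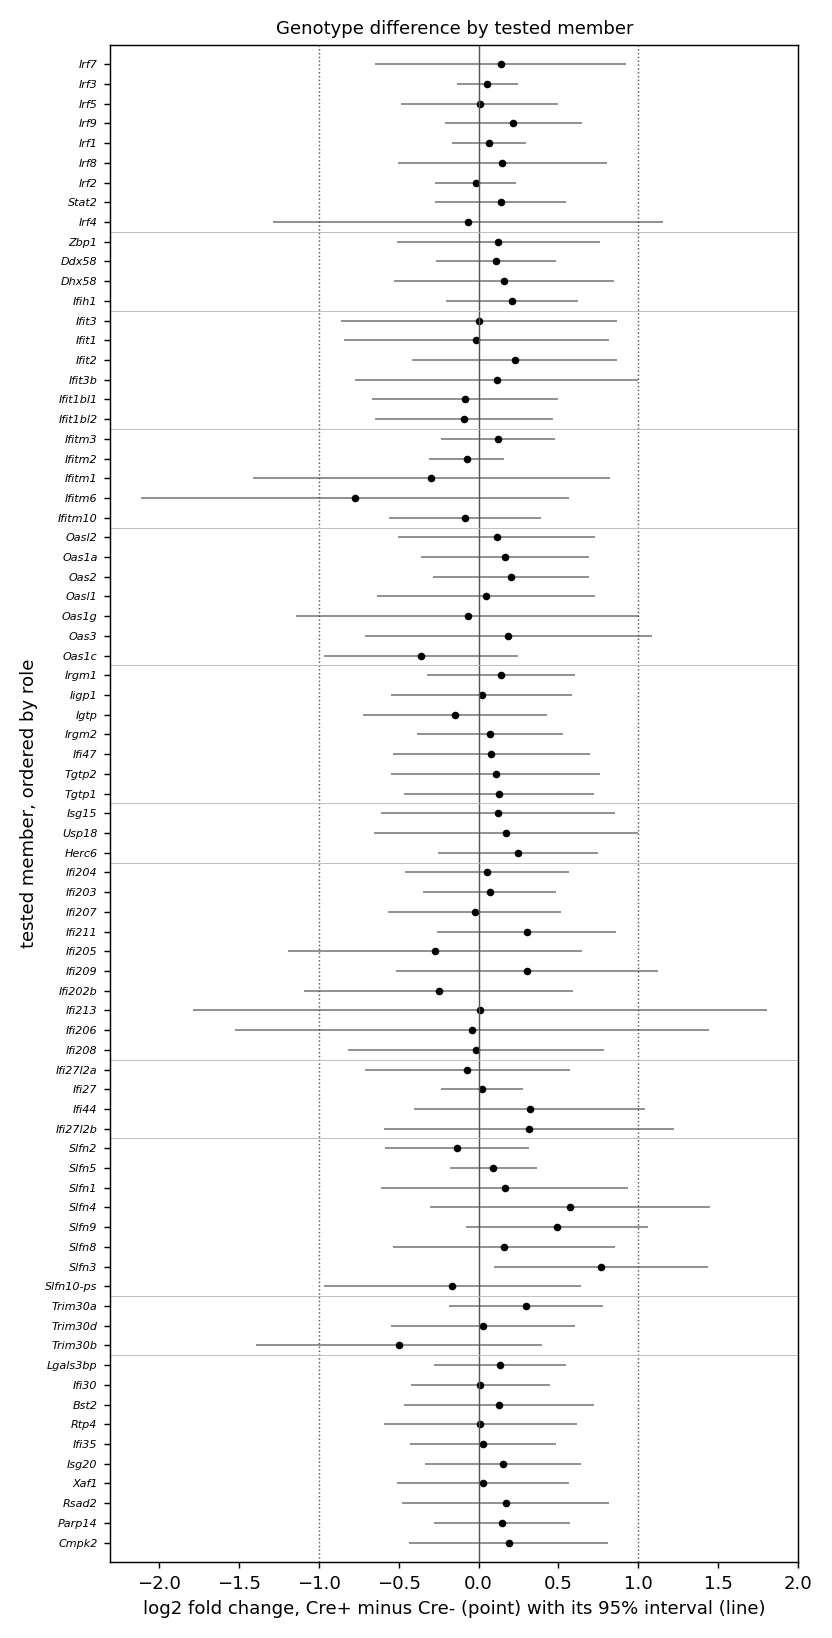
Log2 fold change of 76 of the 78 tested members, Cre positive minus Cre negative, as a point with its 95% interval as a line, ordered by role, with dotted lines at a 2-fold change. All intervals but that of Slfn3 cross 0, and the widest belong to Ifi213, Ifi206, Ifitm6 and Irf4.

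The members varied together among the Cre negative ventricles. Each gene's log2 normalized count was set against its own mean over the 6 ventricles, and the median of this deviation over the 78 members was -0.20, 0.43 and -0.39 in Cre negative replicates 1, 2 and 3. In Cre positive replicates 1, 2 and 3 it was 0.09, 0.18 and 0.01. Over all genes tested the median lay between -0.01 and 0.01 in every ventricle. Thus 70 of the 78 members stood above their own mean in Cre negative replicate 2 but 16 in replicate 1 and 8 in replicate 3, while 55, 61 and 40 did so in the Cre positive replicates 1, 2 and 3.

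Cre negative replicate 2 was the highest of its genotype for 66 of the 78 members (84.6%, against 27.5% of all genes), and Cre positive replicate 2 for 46 (59.0%, against 35.7%). Both held for 43 members (55.1%), against 10.1% of all genes. The median standard deviation of the log2 normalized count was 0.48 among the Cre negative and 0.16 among the Cre positive ventricles, whereas over all genes it was 0.19 and 0.13. It was larger among the Cre negative ventricles for 73 of the 78 members (93.6%, against 66.3% of all genes). For 58 members (74.4%, against 21.6%) the whole Cre positive range lay inside the Cre negative range. Members share the same 6 ventricles and were not counted as independent.

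**Figure D3:**
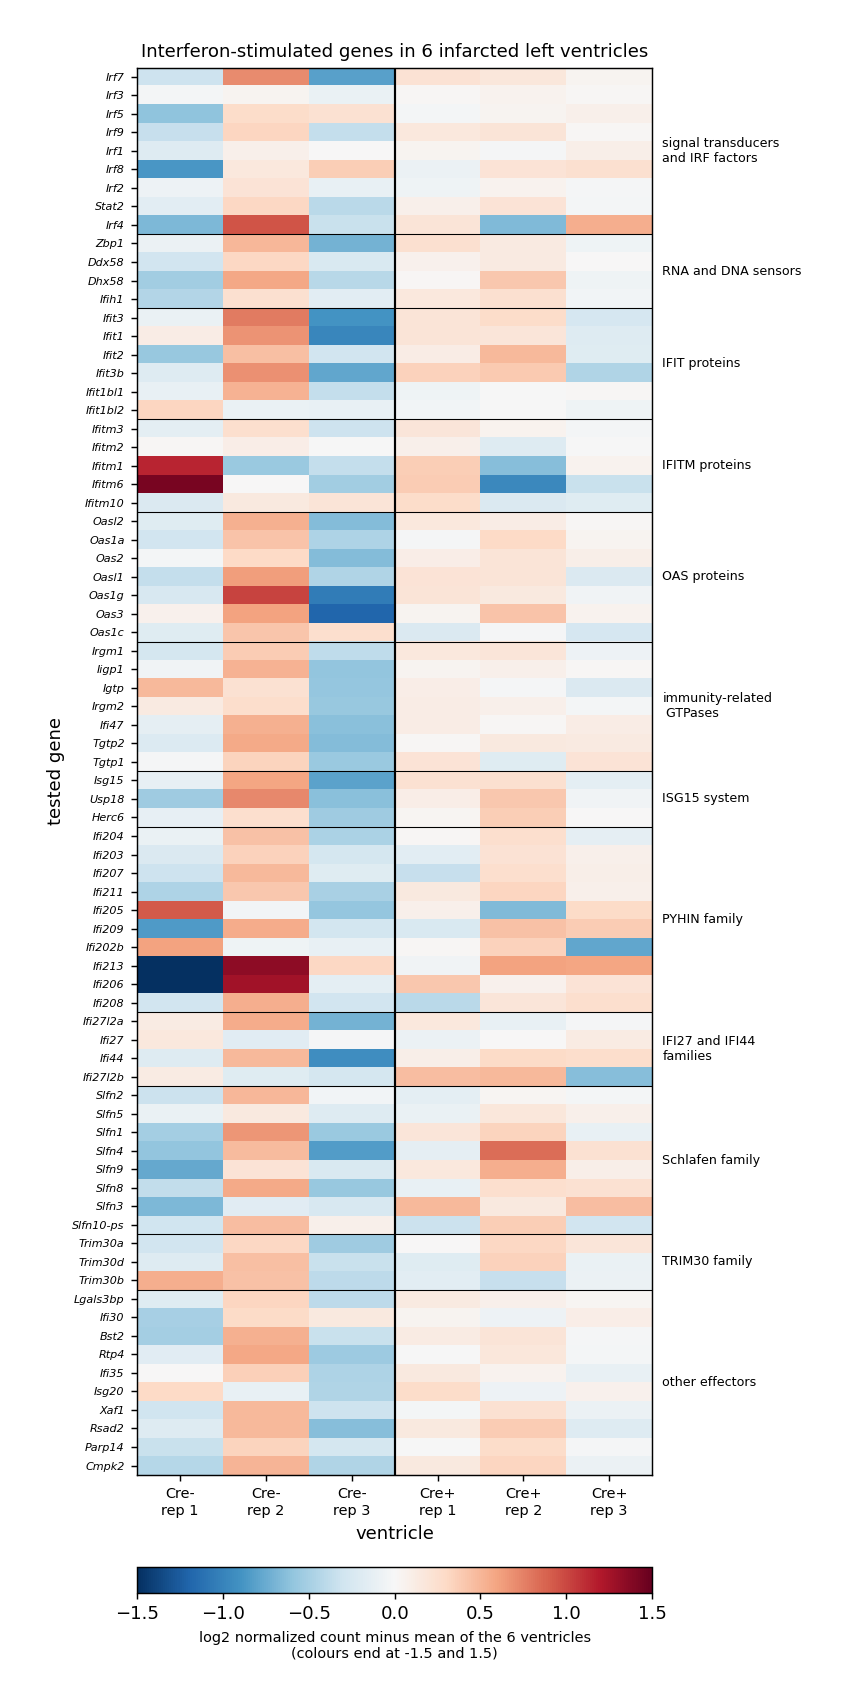
The same 76 of the 78 tested members (rows, ordered by role) in each of the 6 ventricles (columns), coloured by the log2 normalized count minus the mean of that gene over the 6 ventricles. Over all 78, Cre negative replicate 2 is above the mean for 70 members and Cre negative replicate 3 for 8. Replicate 1 is the highest Cre negative ventricle for 10 members, Ifitm1, Ifitm6 and Ifi205 among them.

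The replicate 2 ventricles that were highest in these genes are the same that held almost no Y-linked counts. Absence of these counts fell on replicate number 2 in both genotypes, so the 2 features cannot be told apart. The ventricles were then split by these counts, after the data were seen. Within the 4 ventricles with Y-linked counts, the median difference of the members was 0.36 on the log2 scale, Cre positive minus Cre negative (median of all genes 0.01). The difference was above 0 for 68 of 78 members, against 52.1% of all genes. These 4 leave out Cre negative replicate 2, without which the median log2 fold change was 0.39, as given above. Between the 2 ventricles without Y-linked counts the median difference was -0.22 (median of all genes 0.002). It was above 0 for 14 of 78 members, against 50.3% of all genes. These second values rest on 1 ventricle of each genotype. With presence of Y-linked counts as a covariate, an alternative chosen after seeing the data, 0 members had an adjusted p under 0.05 in edgeR's test and the median log2 fold change was 0.14.

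The signal transducers and regulatory factors were measured first, since they carry the signal from the receptor to the promoter. All 11 were tested, and the log2 fold change was above 0 for 8 of them, with a median of 0.07. Irf9, the DNA-binding subunit of the complex, was at 24.3, 43.4 and 27.3 TPM in Cre negative and 39.3, 42.8 and 37.3 TPM in Cre positive replicates 1, 2 and 3. Its log2 fold change was 0.22 (SE 0.18, adjusted p = 0.74). In the same order, values of further genes are given for the Cre negative against the Cre positive replicates. Stat2, its partner, was at 17.6, 27.3 and 16.6 against 23.98, 27.7 and 22.8 TPM, with a log2 fold change of 0.14 (SE 0.18, adjusted p = 0.82). Both were highest in replicate 2 of each genotype, and the Cre negative and Cre positive ranges overlapped only through Cre negative replicate 2.

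Irf7, the regulator that amplifies type I interferon production, was the most abundant of this group. It stood at 69.7, 158 and 55.1 TPM in the Cre negative and 113, 118 and 104 TPM in the Cre positive ventricles. The Cre negative ventricles spanned a 2.86-fold range and the Cre positive ventricles a 1.12-fold range, and the log2 fold change was 0.14 (SE 0.34, adjusted p = 0.91). By contrast Irf3, a factor that is present before any interferon signal, was at 39.2, 45.5 and 41.2 against 45.01, 50.1 and 47.1 TPM, with a standard deviation of 0.07 on the log2 scale in the Cre negative ventricles. Irf5 and Irf8, which are expressed in monocytes and macrophages, followed another order. Irf5, whose counts were not whole in 5 ventricles, was at 22.3, 45.5 and 44.01 TPM in Cre negative and 37.6, 41.97 and 41.8 TPM in Cre positive ventricles. Irf8 was at 12.9, 29.4 and 34.1 TPM in Cre negative and 24.9, 33.1 and 32.8 TPM in Cre positive ventricles, lowest in Cre negative replicate 1 and highest in Cre negative replicate 3, where most members stood below their mean. Irf4 was below 1.5 TPM in every ventricle.

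The 4 sensors of foreign RNA and DNA all had a log2 fold change above 0, with a median of 0.14. Zbp1, a sensor of Z-form nucleic acid, was at 26.1, 45.1 and 21.9 TPM in Cre negative and 43.01, 38.4 and 32.97 TPM in Cre positive ventricles, and its log2 fold change was 0.12 (SE 0.27, adjusted p = 0.90). Ifih1, which encodes the RNA sensor MDA5, was at 6.24, 11.1 and 8.93 against 11.3, 12.5 and 9.65 TPM, with a log2 fold change of 0.21 (SE 0.18, adjusted p = 0.74). Ddx58, which encodes the RNA sensor RIG-I, and Dhx58, another helicase of that family, reached 27.2 and 21.5 TPM in Cre negative replicate 2, from 16.05 and 9 TPM in replicate 1. For each of these 4 genes the Cre positive range overlapped the Cre negative one.

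The 6 IFIT genes, whose proteins bind foreign RNA and block its translation, were split in direction, with 3 above 0 and 3 below and a median of -0.01. Ifit3 was at 44.1, 90.2 and 28.8 TPM in the Cre negative and 60.4, 69.8 and 46.7 TPM in the Cre positive ventricles. Its group means were all but equal, with a log2 fold change of 0.0013 (SE 0.37, adjusted p = 0.999) that was below 0 under DESeq2 size factors, yet the Cre negative ventricles spanned a 3.13-fold range. Ifit1 ranged as widely, from 10.8 to 33.9 TPM in the Cre negative and from 19.6 to 26.1 TPM in the Cre positive ventricles. The IFIT genes summed to 63.8 to 173 TPM in Cre negative and to 96.2 to 143 TPM in Cre positive ventricles.

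The IFITM genes encode small membrane proteins that hinder the entry of viruses, and they were the most abundant group, at 1916 to 2055 TPM in the Cre positive ventricles. Of 7 members 5 were tested, and 4 of the 5 had a log2 fold change below 0. Ifitm3 was at 830.3, 1216 and 830.3 TPM in Cre negative and 1175, 1163 and 1060.5 TPM in Cre positive ventricles, with a log2 fold change of 0.12 (SE 0.15, adjusted p = 0.82) that was 0.0053 without Cre negative replicate 3 and 0.30 without Cre negative replicate 2. Ifitm2 was at 695, 820.2 and 768 against 819, 732 and 809.8 TPM, and its log2 fold change of -0.07 (SE 0.10, adjusted p = 0.83) turned above 0 when TPM values were tested in place of counts. Their standard deviation on the log2 scale among the Cre negative ventricles was 0.29 for Ifitm3 and 0.05 for Ifitm2, against 0.77 for Irf7 and 0.84 for Ifit3.

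Ifitm6 and Ifitm1 did not follow the other members. Ifitm6, an IFITM gene of myeloid cells, was at 27.6, 11.2 and 7.64 TPM in Cre negative and 14.9, 5.93 and 9.25 TPM in Cre positive ventricles, and its log2 fold change of -0.77 (SE 0.58, adjusted p = 0.72) was the lowest of all members. It was 0.02 without Cre negative replicate 1. Ifitm1 was at 46.5, 14.1 and 18.1 against 33.4, 15.4 and 26.1 TPM. Both genes were highest in Cre negative replicate 1, which was also the highest for 6 of 7 neutrophil markers, whereas Csf3r was lowest there, at 12.3 TPM against 17.4 to 25.95 TPM in the other 5 ventricles. The 7 markers, of which S100a8 and S100a9 made up most, summed to 426, 90.2 and 53.2 TPM in Cre negative and to 162, 72.7 and 133 TPM in Cre positive replicates 1, 2 and 3. Of the 6 that were tested 1 had a log2 fold change above 0, and Ly6g was listed at 0 in 4 ventricles. The part of neutrophils in the levels of Ifitm6 and Ifitm1 was not tested.

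The OAS genes encode enzymes that make 2′-5′ linked oligoadenylates on double-stranded RNA, or their inactive relatives. Of 9 members 7 were tested, 5 of them with a log2 fold change above 0, and the median was 0.11. Oasl2, the most abundant, was at 67.8, 126 and 55.5 TPM in Cre negative and 95.7, 101 and 92.4 TPM in Cre positive ventricles, with a log2 fold change of 0.11 (SE 0.27, adjusted p = 0.91). Oas1g varied most, at 5.14, 13.7 and 3.19 TPM in Cre negative and 7.79, 8.14 and 6.86 TPM in Cre positive ventricles. Its range was 4.31-fold among the Cre negative ventricles and 1.19-fold among the Cre positive ventricles, and its log2 fold change of -0.07 (SE 0.46, adjusted p = 0.97) turned above 0 when TPM values were tested. Oas1c, at 2.21, 3.65 and 3.24 against 2.09, 3.05 and 2.65 TPM, had a log2 fold change of -0.36 (SE 0.26, adjusted p = 0.72). The Oas1 genes are close copies, so reads may have been divided between them.

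The immunity-related GTPases disrupt the vacuoles in which intracellular parasites live. Regulatory members, Irgm1 and Irgm2 among them, hold the others inactive. All 7 were tested, 6 with a log2 fold change above 0, and the median was 0.08. Irgm1 was at 33.97, 58.98 and 34.9 TPM in Cre negative and 50.8, 55.5 and 45.5 TPM in Cre positive ventricles, with a log2 fold change of 0.14 (SE 0.20, adjusted p = 0.83). Irgm2, whose promoter window is printed above with those of Irgm1 and Igtp, was at 22.5, 27.6 and 15.5 against 24.99, 26.3 and 23.7 TPM. Igtp was at 39.05, 36.5 and 20.8 against 33.5, 33.4 and 28.2 TPM, so that its highest Cre negative ventricle was replicate 1, and its log2 fold change was the only one of the group below 0. The estimated counts of Igtp and Irgm2 were not whole in any of the 6 ventricles, but those of both genes together were, to within 0.005, at 1147, 1335 and 759 in Cre negative and 1191, 1223 and 1045 in Cre positive replicates 1, 2 and 3. Reads were thus divided between them, and the single values of both are uncertain. Tgtp1 and Tgtp2, near-identical copies, are uncertain for the same reason as the Oas1 genes.

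The ISG15 system comprises the ubiquitin-like protein Isg15, the protease Usp18 that removes it and the ligase Herc6 that attaches it. All 3 had a log2 fold change above 0, of 0.12 to 0.25. Isg15 was at 56.4, 104 and 39.5 TPM in Cre negative and 81.4, 88.9 and 65.9 TPM in Cre positive ventricles. The Cre positive values lay between the highest Cre negative ventricle and the other 2, and the log2 fold change was 0.12 (SE 0.31, adjusted p = 0.92). Usp18 was at 9.57, 25.7 and 10.02 against 16.8, 22.4 and 15.8 TPM, highest in replicate 2 of each genotype.

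The PYHIN genes, which encode DNA-binding proteins, were split evenly, with 5 of the 10 tested members above 0 and 5 below. Ifi204, the most abundant, was at 31.5, 51.3 and 27.4 TPM in Cre negative and 38.4, 49.1 and 36.4 TPM in Cre positive ventricles, with a log2 fold change of 0.05 (SE 0.22, adjusted p = 0.95). Ifi211 was at 15.3, 31.3 and 16.9 against 26.1, 32.3 and 26.2 TPM, with a log2 fold change of 0.30 (SE 0.24, adjusted p = 0.73). Ifi213 and Ifi206 had the largest spread of all members. Ifi213 was at 0.10, 4.36 and 1.86 TPM in the Cre negative ventricles, the lowest of which rests on 2 counts, under the floor of 3, and at 1.63, 2.44 and 2.28 TPM in the Cre positive ventricles, and its log2 fold change was 0.01 (SE 0.77, adjusted p = 0.997). Ifi206 was at 0.33, 3.53 and 1.28 against 1.92, 1.62 and 1.74 TPM, with a log2 fold change of -0.04 (SE 0.64, adjusted p = 0.99) that turned above 0 when TPM values were tested. Both were lowest in Cre negative replicate 1, at 2.35 and 9.40 normalized counts. The counts of Ifi206 were whole in all 6 ventricles, and those of Ifi213 in 4. Ifi205, at 30.3, 17.3 and 11.9 against 18.9, 12.2 and 23.02 TPM, was highest in Cre negative replicate 1, as Ifitm1 and Ifitm6 were.

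Of the IFI27 and IFI44 families all 4 members were tested and 3 had a log2 fold change above 0, with a median of 0.17. Ifi27l2a, an interferon-induced protein of intracellular membranes, was at 395, 594 and 250.2 TPM in Cre negative and 456, 410.4 and 424 TPM in Cre positive ventricles. Its log2 fold change was -0.07 (SE 0.28, adjusted p = 0.95) and turned above 0 when TPM values were tested. Ifi27, by contrast, was at 77.2, 69.8 and 77.7 against 74.4, 86.2 and 89.7 TPM, with a log2 fold change of 0.02 (SE 0.11, adjusted p = 0.96), and was lowest in Cre negative replicate 2.

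The Schlafen genes, which restrain cell growth and viral protein synthesis, held the 3 members with the smallest p. Slfn3 was at 1.02, 1.65 and 1.57 TPM in Cre negative and 2.71, 2.29 and 2.78 TPM in Cre positive ventricles, which did not overlap. It was the only tested member whose ventricles were all higher in the Cre positive group, which 7.55% of all genes were, and no tested member lay wholly lower, which 6.85% of genes did. The log2 fold change of Slfn3 was 0.77 (SE 0.29, adjusted p = 0.71), with an unadjusted p of 0.03 in edgeR's test. A two-sided exact permutation test over its normalized counts gave p = 0.1, the smallest that 3 against 3 ventricles allow. Slfn3 was at 15.3 to 22.6 normalized counts in Cre negative and at 28.6 to 36.8 in Cre positive ventricles, and its unadjusted p was not under 0.05 without Cre negative replicate 1 or 3 or without Cre positive replicate 1 or 3.

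Slfn9, at 2.93, 6.43 and 4.78 TPM in Cre negative and 6.27, 8.89 and 6.26 TPM in Cre positive ventricles, had a log2 fold change of 0.49 (SE 0.24, adjusted p = 0.71). Slfn4 was at 6.32, 13.7 and 5.86 against 9.84, 19.3 and 12.3 TPM, highest in Cre positive replicate 2, and its log2 fold change of 0.57 (SE 0.38, adjusted p = 0.72) was 0.26 without Cre positive replicate 2 and 1.09 without Cre negative replicate 2. Slfn2, the most abundant of the family, was at 35.2, 69.3 and 48.04 against 44.6, 54.7 and 50.8 TPM with a log2 fold change of -0.13 (SE 0.19, adjusted p = 0.84) that turned above 0 when TPM values were tested. Of the 8 Schlafen genes tested 6 had a log2 fold change above 0.

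Of the 3 TRIM30 genes, relatives of ubiquitin ligases, Trim30a was at 13.96, 23.6 and 13.2 TPM in Cre negative and 19.03, 25.5 and 22.7 TPM in Cre positive ventricles, with a log2 fold change of 0.30 (SE 0.21, adjusted p = 0.72). Trim30b was under 1 TPM in all ventricles, at 0.96, 0.97 and 0.49 against 0.62, 0.58 and 0.66 TPM, with a log2 fold change of -0.50 (SE 0.39, adjusted p = 0.73).

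The 10 other effectors all had a log2 fold change above 0, between 0.01 and 0.19. Lgals3bp, a secreted glycoprotein, was at 214, 340.2 and 208 TPM in Cre negative and 301, 311 and 292 TPM in Cre positive ventricles, with a log2 fold change of 0.13 (SE 0.18, adjusted p = 0.83). Bst2, which encodes tetherin, the protein that holds budding virus to the cell surface, was at 115, 268 and 147 against 203, 230.3 and 193 TPM, with a log2 fold change of 0.13 (SE 0.26, adjusted p = 0.89). Rsad2, which encodes viperin, was at 14.1, 25.03 and 11.5 against 19.9, 25.3 and 16.4 TPM. In Bst2 the Cre positive ventricles lay within the range of the Cre negative ventricles, and in Rsad2 Cre positive replicate 2 and Cre negative replicate 2 were level.

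Ifi30, a thiol reductase of antigen-presenting cells, was at 148, 284 and 259 TPM in Cre negative and 242, 241 and 265 TPM in Cre positive ventricles, with a log2 fold change of 0.01 (SE 0.19, adjusted p = 0.99). Like Irf5 and Irf8 it was low in Cre negative replicate 1 only. The 8 monocyte and macrophage markers summed to 1860, 2879 and 3153 TPM in Cre negative and to 2735, 2713 and 3025 TPM in Cre positive replicates 1, 2 and 3, all 8 were tested, 6 had a log2 fold change above 0 and none was at 0 in all ventricles. Their sum was highest in Cre negative replicate 3, in which 70 of the 78 members stood below their mean. The part of macrophage number in the levels of Ifi30, Irf5 and Irf8 was not tested. Of the lists that are not plotted, the 4 B cell markers had the same order of Cre negative ventricles as the members, at 14.1, 41.6 and 10.4 summed TPM, but were lowest in Cre positive replicate 2, at 21.2, 7.22 and 60.7 summed TPM. All 4 were tested, and none was at 0 in all ventricles.

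**Figure D4:**
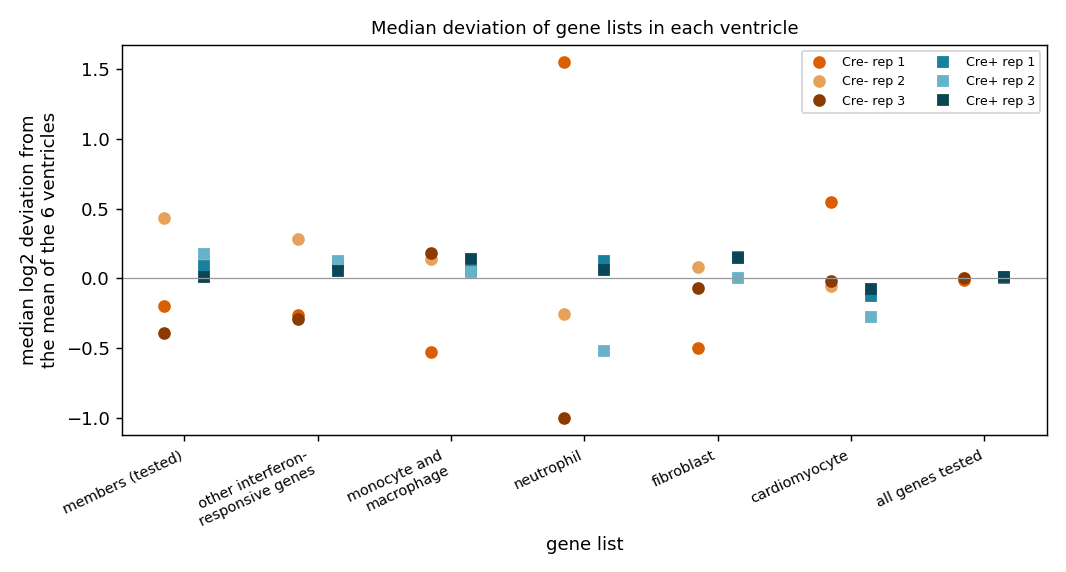
Median log2 deviation from the mean of the 6 ventricles for the tested members, other interferon-responsive genes, 4 lists of cell type markers and all genes, with circles for Cre negative and squares for Cre positive ventricles. The members and the other interferon-responsive genes share the order of the Cre negative ventricles, at 0.43 and 0.28 in replicate 2, and none of the 4 plotted marker lists has that order.

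Upstream of the members, the interferons were barely represented. Of 20 interferon genes sought only Ifng was in the table, with a count in Cre positive replicate 1 alone, and the other 19 were not analysed here. The 6 receptor genes were all expressed, with log2 fold changes of -0.12 to 0.21, 3 of them above 0. Ifnar1 and Ifnar2, the type I receptor, were at 18.8, 28.99 and 27.2 against 32.9, 32.01 and 31.7 TPM and at 87.8, 98.05 and 100.3 against 109, 107 and 113 TPM, with log2 fold changes of 0.21 (SE 0.13, adjusted p = 0.71) and 0.08 (SE 0.09, adjusted p = 0.79). In TPM the Cre positive values of both lay wholly above the Cre negative ones, on a scale where the median of all genes was itself above 0. Ifngr1 and Ifngr2, the receptor of interferon gamma, had log2 fold changes of 0.0061 (SE 0.11, adjusted p = 0.99) and -0.05 (SE 0.09, adjusted p = 0.89). Ifnlr1, the receptor chain of lambda interferons, was at 1.58 to 2.67 TPM, and its partner Il10rb had a log2 fold change of -0.10 (SE 0.08, adjusted p = 0.74). The 3 kinases Jak1, Jak2 and Tyk2 were each above 0, Jak2 at 0.22 (SE 0.10, adjusted p = 0.71), and 4 of 6 inhibitors of the pathway were above 0. None of these genes had an adjusted p under 0.05.

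Of 14 further genes of nucleic acid sensing 11 had a log2 fold change above 0, and 0 passed the test. Tmem173, which encodes the STING adaptor, was at 25.4, 40.5 and 45.5 TPM in Cre negative and 51.1, 47.1 and 49.7 TPM in Cre positive ventricles, with a log2 fold change of 0.30 (SE 0.16, adjusted p = 0.71). Of 30 other interferon-responsive genes outside the symbol pattern 29 were tested, 26 with a log2 fold change above 0, a median of 0.13 and none called. Helz2, a helicase, was the only gene of the list with an unadjusted p under 0.05, at a log2 fold change of 0.38 (SE 0.13, adjusted p = 0.71). Ly6e, a surface protein and the most abundant of the list, was at 623, 849 and 564 TPM in Cre negative and 821, 752 and 787 TPM in Cre positive ventricles. The median deviation of this list was -0.26, 0.28 and -0.29 in the Cre negative and 0.10, 0.12 and 0.06 in the Cre positive replicates, the order of siblings that the members had.

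Among tested members the median standard deviation in Cre negative ventricles was 0.47 for the 35 whose window held the response element, 0.52 for the 29 whose window did not and 0.52 for the 14 without a window. Replicate 2 was the highest Cre negative ventricle for 32, 22 and 12 of them. Ifi205, whose window held the letters, was highest in Cre negative replicate 1, and Irf7, whose window did not hold them, was highest in replicate 2. The difference between these sets was not tested.

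**Figure D5:**
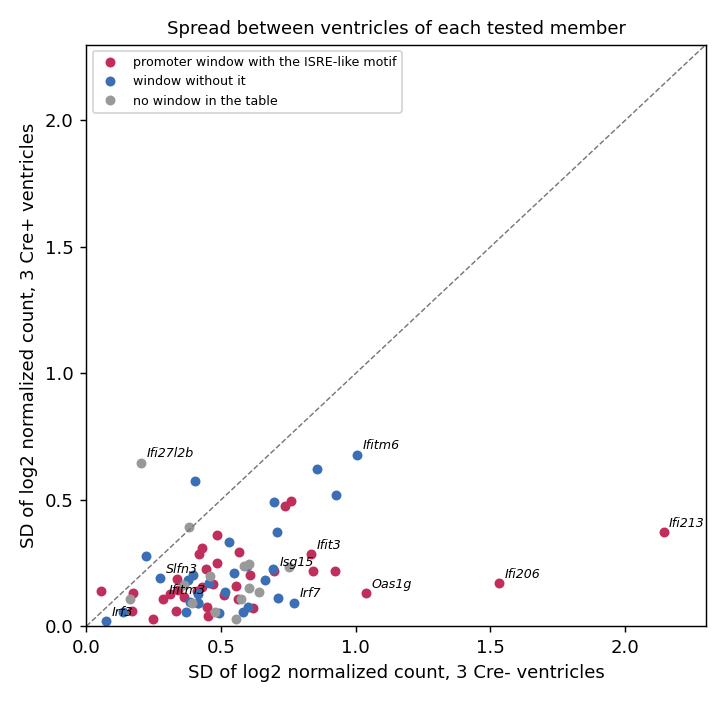
Standard deviation of the log2 normalized count among the 3 Cre negative ventricles (horizontal axis) and among the 3 Cre positive ventricles (vertical axis) for each tested member, coloured by whether its promoter window held the letters of the response element. Below the dashed line of equal spread lie 73 of the 78 members, and Ifi213, Ifi206 and Oas1g lie farthest to the right.

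The 7 members that were not tested were Ifitm5, with 5 to 13 counts per ventricle, and Ifitm7, Oas1h, Oas1d, Ifi214, Slfnl1 and Slfn14, each with at most 8.15 counts over all 6 ventricles. At these counts differences were not detectable for the 6 below Ifitm5. Ifitm5 was at 1.93, 2.60 and 1.79 TPM in Cre negative and 1.23, 1.03 and 1.47 TPM in Cre positive ventricles, which did not overlap, wholly lower in Cre positive. The fit with limma on log2(TPM + 1), which kept Ifitm5, gave a log2 fold change of -0.47 on that scale with an unadjusted p of 0.03 and an adjusted p of 0.58, and Ifitm5 was the only member lower at an unadjusted p under 0.05 in that fit. For 33 members at least 1 count was not a whole number, as happens where reads are divided between genes, and the single values of these members are uncertain to that extent. Most belong to the IFIT, OAS, PYHIN, immunity-related GTPase, TRIM30 and Schlafen families, and Irf5 and Xaf1 are among them.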

How the data were processed

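RNA was extracted with TRIzol from left ventricles, and libraries were made by a sequencing company. The submitters' processing notes name Bowtie2 2.2.5, RSEM 1.2.12 and build GRCm38.p6. The authors deposited estimated counts per gene, not normalized, of which 11.5% are not whole, and FPKM and TPM values. The deposited FPKM values, and a deposited DESeq2 comparison of the genotypes (log2 fold changes, p-values and q-values), were not used. The deposited TPM values take account of gene length and depth, and served for levels between genes.

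Estimated counts were rounded, filtered with filterByExpr (minimum count 10, minimum total 15), scaled by TMM and fitted with edgeR 4.0.16 (glmQLFit and glmQLFTest) in R 4.3.3, on genotype alone, with Benjamini-Hochberg adjustment over 13817 genes and a threshold of 0.05. Normalized counts are at the mean library size of 14264187, log2 values carry a prior count of 2, and intervals are 95%. The procedure was tested on simulated counts, in which it called 67 of 99 genes with a 2-fold change and 96 of 99 with a 4-fold change. Those genes were drawn independently, unlike the members, which varied together. Alternatives used limma 3.58.1 on log2(TPM + 1) and log2(TPM + 0.1) over genes at 1 TPM or more in 3 ventricles, DESeq2 1.42.0, other scalings and filters, each replicate left out, the replicate number as a block and, added after the data were seen, a Y-linked covariate. Intervals and the floor of 3 counts cover counting error only where single libraries are given.

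Members are the 85 symbols matching the pattern, and 85 were found in the RefSeq gene table. Members and gene lists were chosen with earlier results of these data known. Members named with values are those with the 10 smallest p, the 10 highest mean TPM, the highest mean TPM of each role, ventricles that do not overlap, or the 3 largest spreads; receptors, single genes of the pathway, members whose promoter is printed and members that depart from the rest were added after their values were seen. Promoter windows were those of RefSeq (GRCm38.p6), given for 70 members. Values of 2 members, which stay in every count and median, are not reported here by name.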

Additional observations from a re-analysis of the deposited data

How the results depend on the processing

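No member was called under any of the 15 alternatives, nor at an adjusted p under 0.1. The members' median log2 fold change stayed above 0 except without Cre negative replicate 3 and ran from -0.0713 to 0.391 when 1 replicate was left out. Of all genes, DESeq2's Wald test called 5, and leaving out 1 replicate called 0 to 2. The cause of these differences was not tested. The limit of these data is 3 libraries per genotype, and Ifi213, Ifi206, Ifitm6 and Irf4 carry the widest intervals.

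The replicate numbers are shared by the genotypes, but same-numbered ventricles deviated together only for replicate 1, with correlations of 0.354, 0.0726 and -0.0318 over 13817 genes for replicates 1, 2 and 3. Cre negative replicate 3 and Cre positive replicate 2 correlated as closely, at 0.354, so the ventricles were taken to share only a number. With the number as a replicate block, 0 genes were called, the members' median was 0.142, Slfn4 and Slfn9 in place of Slfn3 had an unadjusted p under 0.05, and among the 28 members named by the rule the log2 fold change changed sign to 0.00949 for Ifi27l2a, 0.291 for Ifi206 and 0.137 for Oas1g.

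Over these 28 members, 364 of 412 single values kept their sign and 48 changed it, with no adjusted p below 0.509. On log2(TPM + 1) the sign changed to 0.0498 for Ifitm2, 0.143 for Ifi27l2a, 0.0254 for Slfn2, 0.203 for Ifi206 and 0.245 for Oas1g, and on log2(TPM + 0.1) to 0.0499, 0.144, 0.0268, 0.523 and 0.308 for the same 5. Ifit3 came to -0.00711 with DESeq2 size factors and to -0.00677 with the Wald test. With the Y-linked covariate, chosen after seeing the data, Ifi206 came to 0.257 and Oas1g to 0.128. Leaving out 1 replicate in turn, the log2 fold change ran from -1.21 to 0.0239 for Ifitm6, -0.134 to 0.000488 for Ifitm2, -0.346 to 0.243 for Ifi27l2a, -0.0115 to 0.368 for Lgals3bp, -0.192 to 0.167 for Ifi30, -0.0663 to 0.525 for Bst2, -0.145 to 0.684 for Irf7, -0.127 to 0.497 for Oasl2 and -0.0573 to 0.102 for Ifi27. It ran from -0.162 to 0.552 for Isg15, -0.132 to 0.481 for Zbp1, -0.319 to 0.536 for Ifit3, -0.00429 to 0.417 for Irgm1, -0.139 to 0.335 for Ifi204, -0.303 to 0.127 for Slfn2, -0.524 to 0.97 for Ifi213, -0.509 to 1.01 for Ifi206 and -0.438 to 0.705 for Oas1g. Without a change of sign it ran from 0.00526 to 0.296 for Ifitm3, 0.616 to 0.874 for Slfn3, 0.259 to 1.09 for Slfn4, 0.276 to 0.754 for Slfn9, 0.141 to 0.663 for Ifi211, 0.0623 to 0.41 for Ifih1, 0.127 to 0.576 for Trim30a, -0.52 to -0.224 for Oas1c and -0.767 to -0.318 for Trim30b.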
